A study of Mus musculus with 6 samples.

Results

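The genes described here are 38 genes of the skeletal muscle sarcomere, of its calcium handling and of its fast-fibre energy supply, among the 55453 genes counted in RNA of mouse aortae. They were taken by name from a list of skeletal muscle genes and not by a cut on their measured values. The list was chosen with earlier results of these data known. All 38 were present in the count table. The homozygous conditional knockout mice carried a floxed allele in both copies of Srf, which encodes serum response factor, together with the Itga8-CreERT2 driver. The control mice carried the floxed allele in 1 copy with the same driver, so Cre-expressing cells of the controls could also lose a copy of Srf. Itga8-CreERT2 is a tamoxifen-inducible Cre recombinase expressed from the locus of Itga8, an integrin gene of smooth muscle. Both genotypes received 5 daily injections of 33 mg/kg tamoxifen, and aortae were taken 10 days after the last of them. The vessel was taken from the descending arch to the level of the renal branches, adventitia and endothelium were removed, and aortae were not pooled. Markers of endothelium and of adventitial fibroblasts were still counted in all 5 libraries, as given below. Libraries of 2 homozygous (replicates 2 and 3) and 3 heterozygous aortae (replicates 1, 2 and 3) were analysed. A further sample of the labels, homozygous replicate 1, was not analysed here. The series' design text states that a homozygous sample was set aside as an outlier or an error of sampling.

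The sarcomere is the contractile unit of striated muscle. Myosin thick filaments pull on actin thin filaments, and troponin on the thin filament makes that pull depend on calcium, which the ryanodine receptor releases from the sarcoplasmic reticulum and a calcium pump returns there. Fast and slow fibres build the same parts from different genes, so that the balance between a fast and a slow isoform describes the kind of fibre present. Smooth muscle of the vessel wall contracts without troponin and uses other myosin and actin genes, while skeletal muscle lies against the aorta in the crura of the diaphragm and along the spine.

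Library totals ranged from 26177821 to 34311855 counts. Srf itself stood at 44.9 and 38.6 CPM in homozygous replicates 2 and 3, against 56.0, 64.4 and 68.2 CPM in heterozygous replicates 1, 2 and 3, where CPM is a count scaled to library size after TMM normalization. Its log2 fold change was -0.59 (SE 0.122, adjusted p = 0.115 by edgeR's quasi-likelihood test and 0.00423 by DESeq2). The groups did not overlap, with homozygous libraries lower, as for 18.2% of all genes tested. For comparison, 8 smooth muscle markers summed to 15659 and 15320 CPM in homozygous libraries, against 26750, 27484 and 25878 CPM in heterozygous libraries. They include Acta2 and Itga8, the locus of the Cre driver. Whether their lower sum reflects less smooth muscle or lower levels per cell was not tested, so it does not measure tissue content. All 38 skeletal muscle genes together summed to 5230 and 10729 CPM in homozygous libraries, against 4769, 2803 and 3277 CPM in heterozygous libraries.

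The libraries differed in their content of skeletal muscle RNA, within each genotype as well as between them. In 22 of the 38 genes (57.9%) the order from highest to lowest was homozygous replicate 3, homozygous replicate 2, heterozygous replicate 1, heterozygous replicate 2 and heterozygous replicate 3, an order found in 2.66% of the 18192 genes tested. Homozygous replicate 3 was the highest library for 32 genes (84.2%), against 20.8% of all genes tested, and heterozygous replicate 3 the lowest for 31 (81.6%), against 25.9%. In heterozygous replicate 3, 21 of the 38 genes were under 1 CPM and 8 had 3 counts or fewer. In RNA of whole tissue, fewer fibres and less RNA per fibre cannot be told apart.

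**Figure D1:**
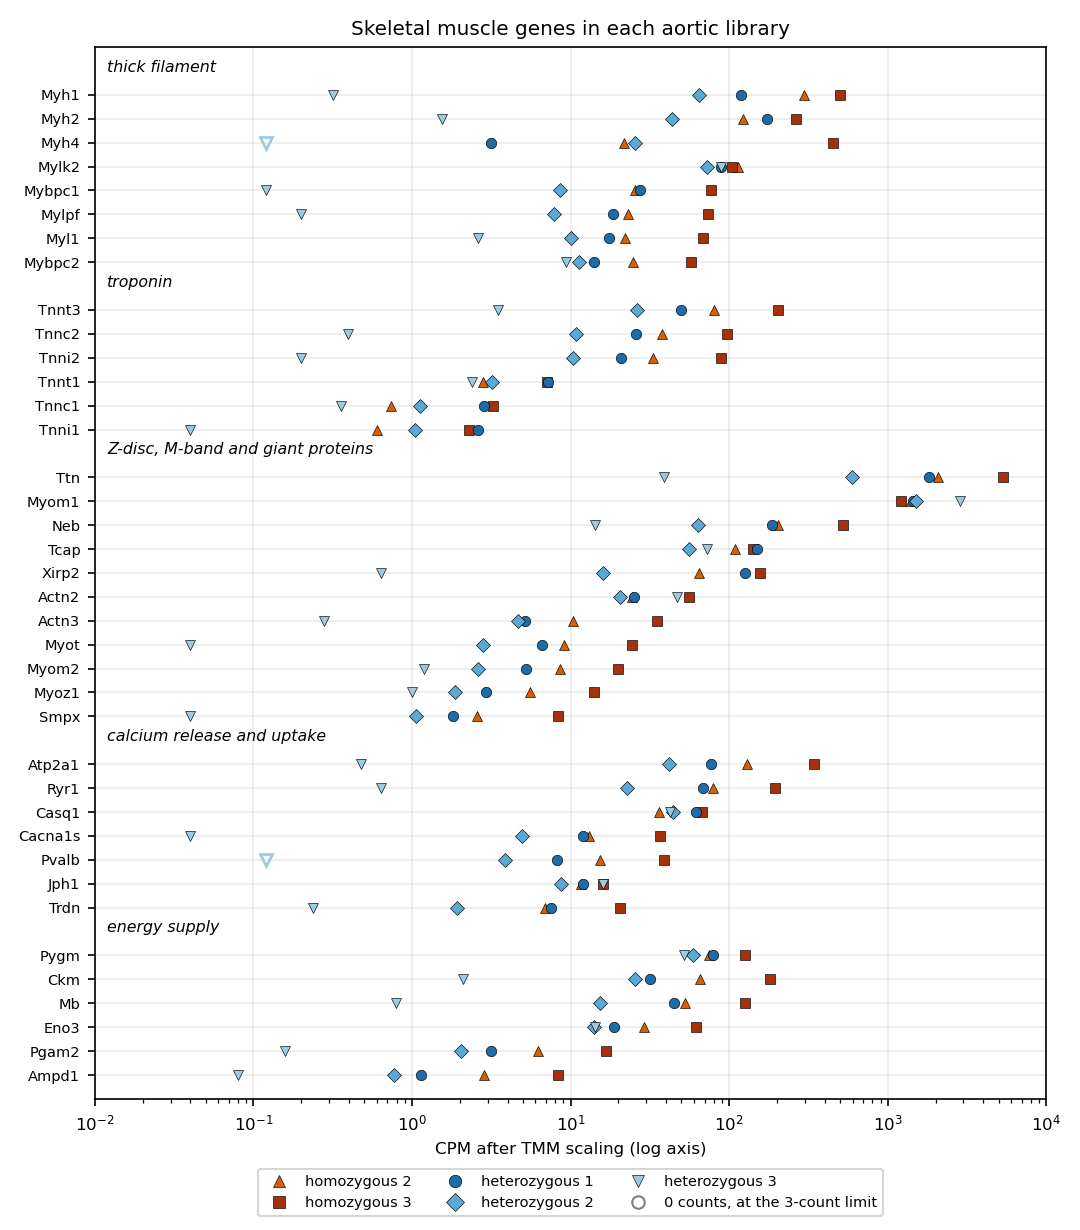
Level of each of the 38 genes in each library, in CPM after TMM scaling on a log axis, grouped by role. Filled symbols are the 2 homozygous and 3 heterozygous libraries, and open symbols mark 0 counts, drawn at the limit of 3 counts (0.119 CPM in heterozygous replicate 3). The pale triangles of heterozygous replicate 3 lie far to the left for 21 genes under 1 CPM, while Myom1, Actn2, Jph1 and Casq1 have no such gap.

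Ratios were taken between libraries that follow each other in that order, which was itself read from these genes. Between the homozygous libraries, replicate 3 over replicate 2, the median ratio of the 38 genes was 2.55, with a range from 0.862 to 20.9. Homozygous replicate 2 over heterozygous replicate 1 gave a median of 1.24, from 0.230 to 6.89, and heterozygous replicate 1 over heterozygous replicate 2 a median of 1.94, from 0.123 to 7.91. Over the tested genes with counts in every library the same medians were 1.01, 0.990 and 1.00. The smallest of these 3 median ratios was the one that crosses the genotypes. By that order it joins the lower homozygous library to the highest heterozygous one, so it does not measure the difference between genotypes. Heterozygous replicate 2 over heterozygous replicate 3 was not among the ratios. Homozygous replicate 3 over heterozygous replicate 1, which are further apart in the order, had a median ratio of 3.17. For 24 of the 38 genes heterozygous replicate 1 was more than 10 times above heterozygous replicate 3, or replicate 3 had no counts.

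**Figure D2:**
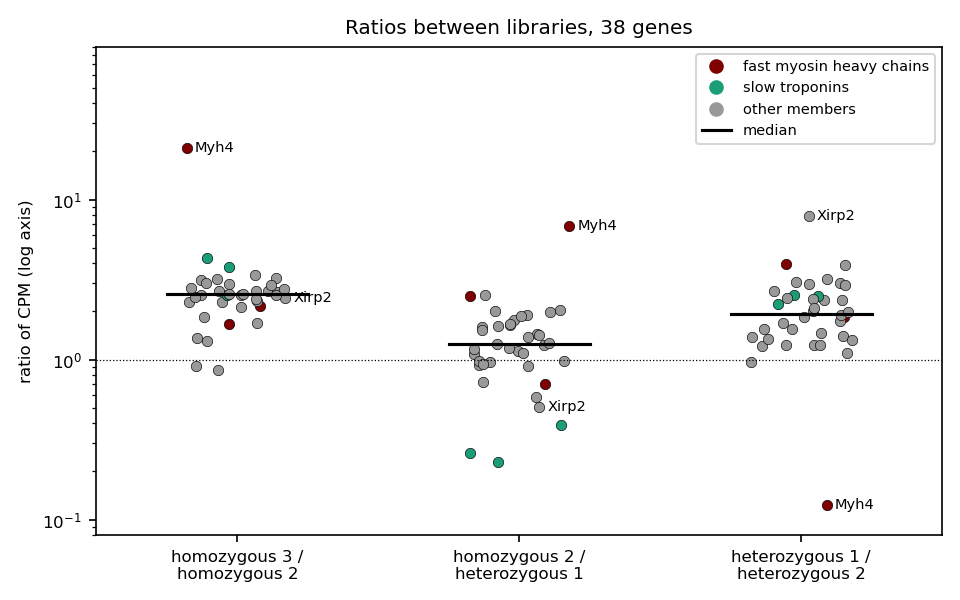
Ratios of CPM between libraries for the 38 genes, on a log axis, with the median of each column as a bar (2.55, 1.24 and 1.94). Myh4 lies at 20.9, 6.89 and 0.123, apart from the other genes in all 3 columns, and the slow troponins lie lowest in the middle column, from 0.230 to 0.390.

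The myosin heavy chains, the motor proteins of the thick filament, differed between libraries in kind as well as in amount. Myh1 encodes the fast IIx chain, Myh2 the fast IIa chain and Myh4 the fast IIb chain, and the genes lie side by side on chromosome 11 (GRCm38, GENCODE M21: Myh2 from 67171027 to 67197517, Myh1 from 67200052 to 67224575 and Myh4 from 67238029 to 67260446, plus strand). The genes of this 1 cluster did not keep to 1 ratio across the libraries. Their RefSeq promoters (GRCm38.p6, plus strand, 250 bases before to 50 after the start site) are shown as a description. Whether the motifs bear on the levels was not tested. Capitals mark the letters of an E-box (CANNTG, the motif of the MyoD family), of a MEF2 site and of a CArG box, the motif bound by serum response factor, searched on both strands. The windows are chr11:67237562-67237861 for Myh4, chr11:67199852-67200151 for Myh1 and chr11:67170777-67171076 for Myh2.
Myh4: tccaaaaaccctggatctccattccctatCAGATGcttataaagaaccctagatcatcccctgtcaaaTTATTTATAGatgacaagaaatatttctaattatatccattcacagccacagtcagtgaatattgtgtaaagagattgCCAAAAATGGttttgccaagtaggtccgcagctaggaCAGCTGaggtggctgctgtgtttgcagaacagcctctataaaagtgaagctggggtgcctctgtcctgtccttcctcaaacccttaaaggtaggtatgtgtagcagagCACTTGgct
Myh1: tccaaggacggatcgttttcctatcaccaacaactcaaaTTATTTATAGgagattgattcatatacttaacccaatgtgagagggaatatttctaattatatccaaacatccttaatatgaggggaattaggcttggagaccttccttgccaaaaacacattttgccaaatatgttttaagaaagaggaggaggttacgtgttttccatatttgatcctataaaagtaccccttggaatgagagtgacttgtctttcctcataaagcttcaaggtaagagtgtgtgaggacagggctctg
Myh2: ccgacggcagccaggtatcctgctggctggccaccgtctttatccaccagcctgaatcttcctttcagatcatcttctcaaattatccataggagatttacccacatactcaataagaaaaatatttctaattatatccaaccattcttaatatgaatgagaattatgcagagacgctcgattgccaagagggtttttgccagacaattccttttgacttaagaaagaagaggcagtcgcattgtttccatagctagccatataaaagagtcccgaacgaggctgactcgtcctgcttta
The Myh4 window held a CArG box that starts 104 bases before the start site, a MEF2 site that starts 182 bases before it, and 3 E-boxes. The Myh1 window held a MEF2 site with the same letters, 211 bases before the start site, and the Myh2 window held no match to any of the 3 motifs. None of the matches in these windows overlapped a match of another motif. Of the 38 genes, 26 had a RefSeq promoter. Of these 26, 2 held a CArG box (7.69%; Myh4 and Myom1), against 1.81% of 27025 genes with a promoter of the same length. A MEF2 site was found in 6 (23.1%; Myh1, Myh4, Pgam2, Pvalb, Ttn and Xirp2), against 3.7%, and an E-box in 22 (84.6%), against 75.0%.

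Myh1 stood at 296 and 496 CPM in homozygous replicates 2 and 3, against 119, 64.5 and 0.318 CPM in heterozygous replicates 1, 2 and 3. Both homozygous libraries lay above all heterozygous ones. Myh2 stood at 122 and 264 CPM in homozygous libraries, against 173, 43.8 and 1.55 CPM in heterozygous libraries, and here heterozygous replicate 1 lay between the homozygous libraries. Myh4 stood at 21.6 and 451 CPM in homozygous libraries, against 3.13, 25.4 and 0 CPM in heterozygous libraries. The groups overlapped for Myh4, since homozygous replicate 2 lay below heterozygous replicate 2, and the high group mean came from homozygous replicate 3 alone. The 0 counts of Myh4 in heterozygous replicate 3 allow up to 0.119 CPM (3 counts, counting error only).

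The balance between IIb and IIa chains did not follow the amount of muscle RNA. Per kilobase of exon, Myh4 made up 17.4% of Myh4 and Myh2 together in homozygous replicate 2 (95% exact binomial interval 16.15 to 18.6%) and 66.9% in homozygous replicate 3 (66.35 to 67.5%). The share was 2.10% in heterozygous replicate 1 (1.715 to 2.54%), 40.7% in heterozygous replicate 2 (38.7 to 42.8%) and 0 of 39 counts in heterozygous replicate 3 (up to 10.5%). Heterozygous replicate 2 thus had less heavy chain RNA than heterozygous replicate 1 but a higher share of Myh4. Intervals of shares cover counting error only, here and below. In part the genes share sequence: 14.0% of the 100-base words of Myh1 transcripts, 9.49% of those of Myh2 and 3.85% of those of Myh4 also occur in transcripts of other genes, other myosin heavy chains and antisense transcripts among them, so counts may be split between them.

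Of 5 pairs of a slow and a fast isoform, 4 had a smaller slow share in both homozygous libraries than in any heterozygous one, and the pair of myosin-binding proteins C did not. Tnnt1, the slow troponin T, accounted per kilobase for 2.43% of Tnnt1 and Tnnt3 in homozygous replicate 2 (interval 1.93 to 3.02%) and 2.44% in replicate 3 (2.13 to 2.77%), against 9.36% (8.22 to 10.6%), 8.05% (6.63 to 9.67%) and 32.9% (25.7 to 40.75%) in heterozygous replicates 1, 2 and 3. Tnni1, the slow troponin I, accounted for 0.751% (0.437 to 1.20%) and 1.05% (0.827 to 1.32%) of Tnni1 and Tnni2 in homozygous libraries, against 5.00% (3.98 to 6.19%) and 3.98% (2.76 to 5.55%) in heterozygous replicates 1 and 2. In heterozygous replicate 3 this pair had 6 counts, too few to place its share (7.68%, 0.175 to 42.6%). Tnnc1, the troponin C of slow and cardiac fibres, accounted for 1.49% (0.925 to 2.28%) and 2.51% (2.06 to 3.03%) of Tnnc1 and Tnnc2 in homozygous libraries, against 7.74% (6.27 to 9.43%), 7.45% (5.30 to 10.1%) and 40.9% (19.9 to 65.4%) in heterozygous libraries. Of Tnnc2's exon bases, 74.0% lie opposite exons of Ube2c, and the strand setting of the counting is not given in the sources used here. Myh7, the slow myosin heavy chain, accounted for 7.63% (6.87 to 8.46%) and 12.04% (11.45 to 12.65%) of Myh7 and Myh2 in homozygous libraries, against 16.2% (15.4 to 17.1%), 17.4% (15.8 to 19.1%) and 24.2% (14.0 to 37.15%) in heterozygous libraries. For these 4 pairs the homozygous shares lay below the heterozygous ones, though the interval of Tnni1 in heterozygous replicate 3 reaches below them. Mybpc1, the slow myosin-binding protein C, accounted for 44.8% (42.2 to 47.4%) and 51.6% (50.1 to 53.1%) of Mybpc1 and Mybpc2 in homozygous libraries, against 60.9% (58.2 to 63.6%), 37.55% (33.96 to 41.3%) and 1.01% (0.208 to 2.92%) in heterozygous libraries. In this pair both homozygous shares lay above those of heterozygous replicates 2 and 3 and below that of replicate 1. Some isoforms kept a level in heterozygous replicate 3 where others nearly vanished. Tnnt1 had 60 counts there and Tnni1 had 1, and Mybpc2 stood at 9.34 CPM and Mybpc1 at 0.119 CPM. Where muscle RNA is low, a share therefore need not describe the kind of fibre, which was not tested. No test was run on these shares, which were compared after the levels had been seen, and 2 libraries against 3 cannot give a two-sided exact permutation p below 0.2.

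**Figure D3:**
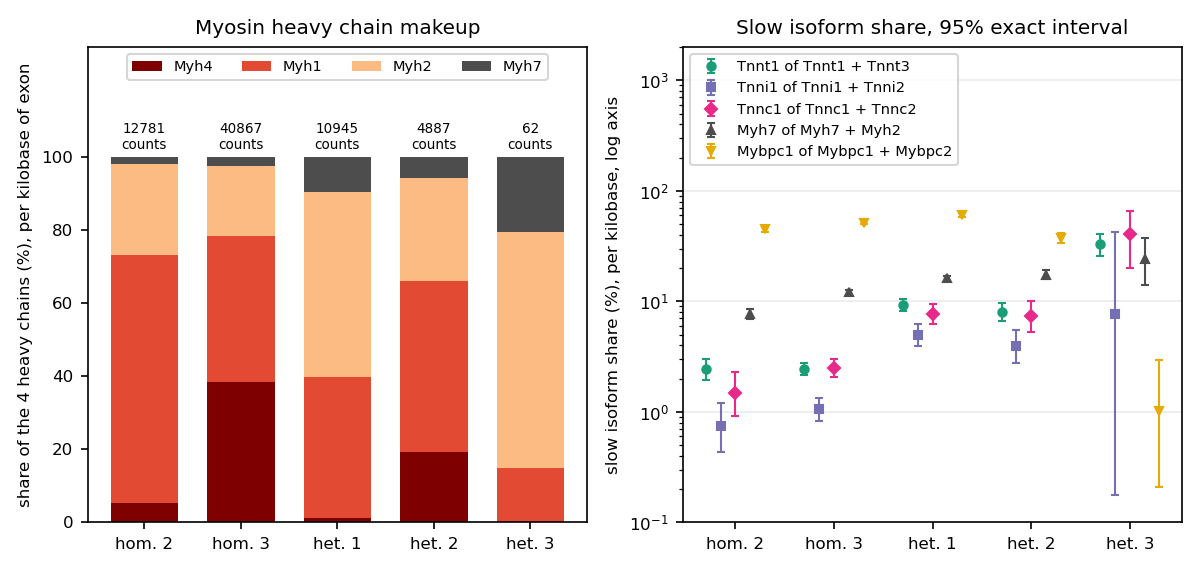
Left, share of each of 4 myosin heavy chains in their sum per kilobase of exon, with the counts behind each library above the bars (62 in heterozygous replicate 3). Right, share of the slow isoform in 5 slow and fast pairs on a log axis, with 95% exact binomial intervals. The homozygous libraries lie lower in 4 of the 5 pairs, while the share of Mybpc1 (44.8% and 51.6% in homozygous libraries) is lowest in heterozygous replicate 3 (1.01%). The dark red Myh4 part is largest in homozygous replicate 3 and smallest, among the libraries with any, in heterozygous replicate 1.

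As levels, the fast troponins, which set the calcium response of fast fibres, were separated between the groups. Tnnt3, the fast troponin T, stood at 80.4 and 204 CPM in homozygous libraries, against 49.8, 26.3 and 3.50 CPM in heterozygous libraries. Tnni2, the inhibitory subunit of fast fibres, stood at 33.0 and 88.7 CPM against 20.65, 10.4 and 0.199 CPM in heterozygous libraries. Tnnc2, the calcium-binding subunit of fast fibres, stood at 37.6 and 96.2 CPM in homozygous libraries, against 25.9, 10.8 and 0.398 CPM in heterozygous libraries. The log2 fold changes were 2.41 (SE 0.849) for Tnnt3, 2.53 (SE 1.01) for Tnni2 and 2.42 (SE 1.01) for Tnnc2, with edgeR adjusted p of 0.245, 0.291 and 0.309. Without homozygous replicate 3 they were 1.595 for Tnnt3, 1.65 for Tnni2 and 1.59 for Tnnc2, and without heterozygous replicate 1 they were 3.24, 3.47 and 3.54. The slow troponins overlapped between the groups and were at most 7.16 CPM in any library. Tnnt1 had its highest level in heterozygous replicate 1 (7.16 CPM) and Tnni1 too (2.61 CPM), while Tnnc1 reached 2.83 CPM there and 3.22 CPM in homozygous replicate 3.

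The other thick filament genes divided into those that followed the library order and those that did not. Mylpf, a fast regulatory light chain, stood at 22.9 and 73.4 CPM in homozygous libraries, against 18.6, 7.88 and 0.199 CPM in heterozygous libraries. Myl1, a fast essential light chain, stood at 21.9 and 68.4 CPM in homozygous libraries, against 17.45, 10.0 and 2.62 CPM in heterozygous libraries. Mybpc1, the slow myosin-binding protein C, stood at 25.3 and 76.3 CPM in homozygous libraries, against 27.4, 8.53 and 0.119 CPM in heterozygous libraries. Mylpf and Myl1 were separated between the groups, and Mybpc1 was not, since heterozygous replicate 1 lay above homozygous replicate 2. Mybpc2, the fast myosin-binding protein C, stood at 24.9 and 57.1 CPM in homozygous libraries, against 14.0, 11.3 and 9.34 CPM in heterozygous libraries, so that its heterozygous libraries lay close together. Mylk2, a myosin light chain kinase of skeletal muscle, stood at 114 and 104 CPM in homozygous libraries, against 89.3, 72.3 and 88.4 CPM in heterozygous libraries. Its groups did not overlap, and its level hardly varied where that of most other thick filament genes varied by over 10 times.

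Of the genes of the Z-disc, the M-band and the giant proteins, most followed the library order, and Myom1 ran against it. Ttn, titin, the elastic protein that spans the sarcomere, stood at 2062 and 5316 CPM in homozygous libraries, against 1819, 595 and 38.7 CPM in heterozygous libraries. Neb, nebulin, which lines the thin filament of skeletal muscle, stood at 202 and 521 CPM in homozygous libraries, against 187, 63.1 and 14.3 CPM in heterozygous libraries. Both were separated between the groups, by a small margin, since heterozygous replicate 1 reached nearly the level of homozygous replicate 2. Tcap, telethonin, a titin cap at the Z-disc, stood at 109 and 142 CPM in homozygous libraries, against 150, 55.7 and 72.0 CPM in heterozygous libraries, with overlap. Myom1, myomesin, a protein of the M-band that crosslinks thick filaments, stood at 1408 and 1213 CPM in homozygous libraries, against 1442, 1498 and 2863 CPM in heterozygous libraries. It was the only one of the 38 genes that was lower in both homozygous libraries than in all heterozygous ones, and it was highest in heterozygous replicate 3, the library with least of most other members. Its log2 fold change was -0.56 (SE 0.305, edgeR adjusted p = 0.432), and -0.15 without heterozygous replicate 3.

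The other 7 genes of these structures ranged from 0.0398 to 156 CPM. Actn3, Myoz1, Myot, Myom2 and Smpx kept the library order that 22 genes shared. Xirp2, a protein of the intercalated disc and the myotendinous junction, stood at 64.1 and 156 CPM in homozygous libraries, against 127, 16.0 and 0.636 CPM in heterozygous libraries. Actn2, an alpha-actinin of the Z-disc found in striated muscle of all types, was at 24.3 and 55.4 CPM in homozygous libraries, against 25.1, 20.6 and 46.8 CPM in heterozygous libraries. For both, heterozygous values lay above the lower homozygous one, for Xirp2 in heterozygous replicate 1 and for Actn2 in replicates 1 and 3. Per kilobase, Actn2 made up 64.2% of Actn2 and Actn3 in homozygous replicate 2 (61.0 to 67.3%) and 54.6% in replicate 3 (52.7 to 56.4%), against 78.9% (76.0 to 81.6%), 77.2% (73.9 to 80.2%) and 99.2% (98.4 to 99.7%) in heterozygous libraries.

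Genes of calcium release and uptake split the same way. Atp2a1, the calcium pump of fast fibres, stood at 129 and 341 CPM in homozygous libraries, against 77.0, 42.0 and 0.477 CPM in heterozygous libraries. Ryr1, the calcium release channel of skeletal muscle, stood at 79.2 and 194 CPM in homozygous libraries, against 68.3, 22.55 and 0.636 CPM in heterozygous libraries. Cacna1s, the voltage sensor that opens it, stood at 13.1 and 36.7 CPM in homozygous libraries, against 11.9, 4.92 and 0.0398 CPM in heterozygous libraries. All 3 were separated between the groups, Ryr1 and Cacna1s with heterozygous replicate 1 close below homozygous replicate 2. Pvalb, parvalbumin, the calcium buffer of fast fibres, stood at 15.3 and 39.0 CPM in homozygous libraries, against 8.17, 3.88 and 0 CPM in heterozygous libraries. Trdn, triadin, which anchors the release complex, stood at 6.85 and 20.4 CPM in homozygous libraries, against 7.50, 1.93 and 0.239 CPM in heterozygous libraries. Pvalb was separated and Trdn was not, again through heterozygous replicate 1. Casq1, calsequestrin, the calcium store protein of fast fibres, stood at 36.1 and 67.1 CPM in homozygous libraries, against 61.9, 44.0 and 42.2 CPM in heterozygous libraries. Jph1, junctophilin, which ties the surface membrane to the reticulum, stood at 11.7 and 16.0 CPM in homozygous libraries, against 11.9, 8.65 and 16.1 CPM in heterozygous libraries. These last genes had log2 fold changes of 0.06 (SE 0.275) and 0.18 (SE 0.262), and their groups overlapped. Exons on the opposite strand cover 21.9% of the exon bases of Atp2a1 and part of those of Cacna1s.

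Energy supply genes were highest in homozygous replicate 3. Ckm, muscle creatine kinase, stood at 65.2 and 180 CPM in homozygous libraries, against 31.8, 25.6 and 2.11 CPM in heterozygous libraries. Mb, myoglobin, the oxygen store of muscle, stood at 52.6 and 126 CPM in homozygous libraries, against 44.6, 15.3 and 0.795 CPM in heterozygous libraries. Eno3, the muscle enolase, stood at 28.8 and 61.5 CPM in homozygous libraries, against 18.8, 14.1 and 14.3 CPM in heterozygous libraries. All 3 were separated between the groups, and Eno3 kept a level in heterozygous replicate 3 where Mb nearly vanished. Pygm, muscle glycogen phosphorylase, stood at 74.1 and 126 CPM in homozygous libraries, against 79.5, 59.4 and 51.9 CPM in heterozygous libraries, with overlap. The remaining energy genes, Pgam2 and Ampd1, kept the shared library order with at most 16.7 CPM. Opposite-strand exons cover 31.9% of the exon bases of Mb and 15.5% of those of Ckm.

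The members thus differ in how much of their level needs the muscle-rich libraries. In 25 of the 38 genes the level of heterozygous replicate 3 was under 5% of that of homozygous replicate 3. In 9 it was over 20%: Myom1, Jph1, Mylk2, Actn2, Casq1, Tcap, Pygm, Tnnt1 and Eno3. Per kilobase of exon, Tcap (150 CPM), Tnnt3 (129 CPM), Tnnc2 (120 CPM) and Myom1 (116 CPM) had the highest levels of the 38 genes in homozygous replicate 3. In heterozygous replicate 3 the highest were Myom1 (274 CPM), Tcap (75.9 CPM), Mylk2 (29.96 CPM) and Casq1 (21.6 CPM), again per kilobase.

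Between the genotypes, 37 of the 38 genes had a positive log2 fold change, homozygous over heterozygous, against 47.2% of the 18192 genes tested. The median over the 38 was 2.14, against -0.02 over all genes tested, and the range went from -0.56 for Myom1 to 4.61 for Myh4. A log2 fold change above 1 was found for 28 members, against 2.46% of all genes tested. All 38 passed the filter on low counts, and each was above 0.314 CPM, the level of that filter, in libraries of both genotypes. The 28 members with a mean of at least 10 CPM had a median of 2.12, against -0.05 over the 9660 genes with such a mean. By role the medians were 2.11 for the 8 thick filament genes, 1.43 for the 6 troponins, 2.17 for the 11 genes of the Z-disc, M-band and giant proteins, 2.12 for the 7 calcium genes and 2.37 for the 6 energy genes. Without homozygous replicate 3 the median over the 38 was 1.20, with 31 positive, a fit in which a single homozygous library borrows its spread from the heterozygous ones. Without heterozygous replicate 1 the median was 3.21.

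No member passed the test, in either direction. By edgeR's quasi-likelihood test with Benjamini-Hochberg adjustment over all genes, 0 of the 38 had an adjusted p under 0.05, against 0% of all genes tested higher and 0% lower, with a lowest adjusted p among members of 0.104. At an unadjusted p under 0.05, 18 members were higher (47.4%), against 9.04% of all genes tested, and 0 were lower, against 6.75%. The groups did not overlap, with homozygous libraries higher, for 24 members (63.2%), against 17.4% of all genes, and with homozygous libraries lower for 1 (2.63%), against 18.2%. The median SE of the members' log2 fold changes was 0.857, against 0.166 over all genes tested, and for 14 members it was over 1. limma-voom called 0 members higher or lower, against 0% of all genes higher and 0.0055% lower.

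**Figure D4:**
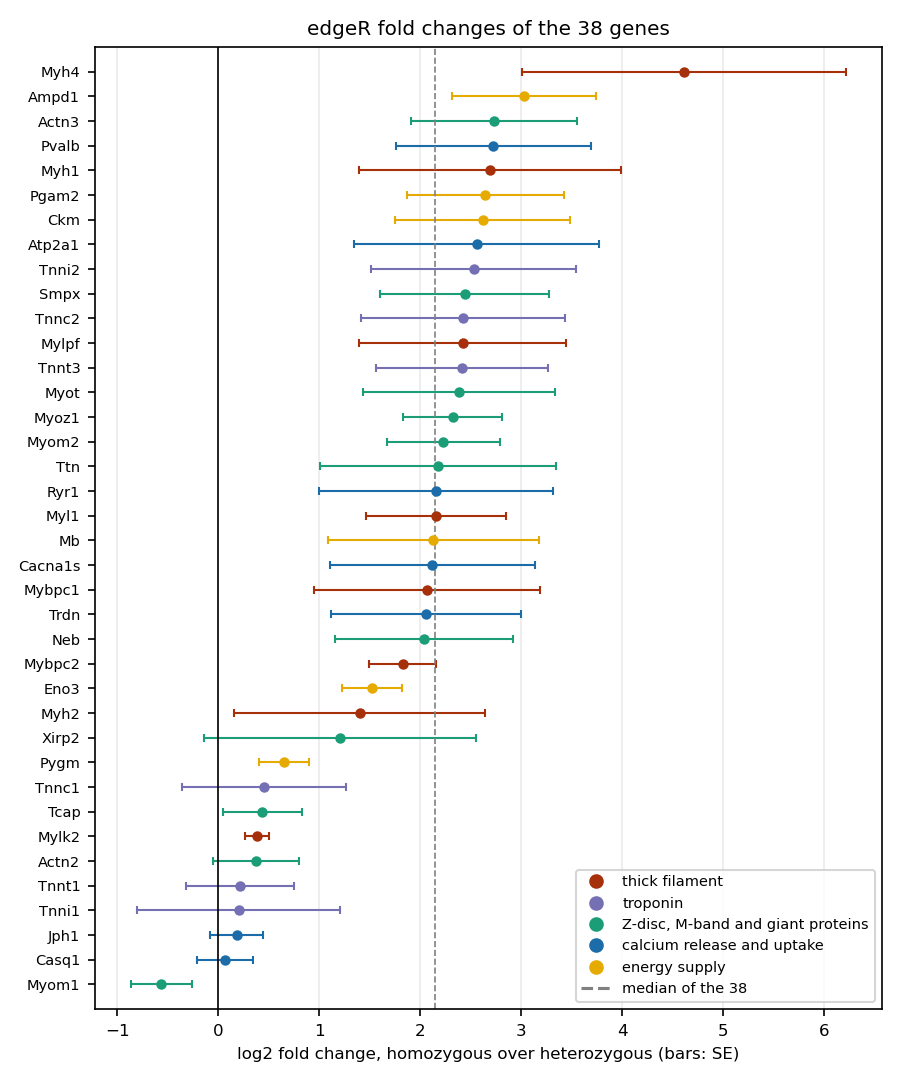
edgeR log2 fold change, homozygous over heterozygous, of each of the 38 genes with its SE as a bar, coloured by role and ordered by size. The dashed line is the median of 2.14, and 37 points lie right of 0, with Myom1 at -0.56.

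DESeq2 called 3 members higher at an adjusted p under 0.05 (7.89%), against 3.68% of the 15017 genes it gave an adjusted p, and 0 lower, against 2.7%. They were Mybpc2, Myoz1, a calcineurin-binding protein of the Z-disc of fast fibres, and Eno3. Mybpc2 had a log2 fold change of 1.82 (SE 0.332, edgeR adjusted p = 0.104), with DESeq2 adjusted p = 9.83e-06 and adjusted p from 1.43e-06 to 0.542 over all alternatives. Eno3 had 1.52 (SE 0.299, edgeR adjusted p = 0.110), with DESeq2 adjusted p = 8.10e-05 and a range from 6.04e-06 to 0.542. Myoz1 stood at 5.55 and 14.0 CPM in homozygous libraries, against 2.92, 1.87 and 0.994 CPM in heterozygous libraries, a log2 fold change of 2.32 (SE 0.489, edgeR adjusted p = 0.115), with DESeq2 adjusted p = 0.000217 and a range from 1.25e-05 to 0.543. In these 3 genes the heterozygous libraries spanned at most 3 times, less than for most other members. Without homozygous replicate 3 the log2 fold changes were 1.11 for Mybpc2, 0.873 for Eno3 and 1.51 for Myoz1. edgeR with no filter on low counts called 27 members higher, against 3.23% of the 30400 genes then tested, and 0 lower, against 1.42%. In that fit the prior degrees of freedom were 29.5, against 4.01 with the filter.

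Other skeletal muscle genes were taken from 3 lists outside the 38. Of 53 such genes, 49 were tested, their median log2 fold change was 0.71, and 12 (24.5%) kept the library order that 22 of the 38 shared, against 2.66% of all genes tested. edgeR's quasi-likelihood test called 0 higher and 0 lower, while 21 were higher and 5 lower at an unadjusted p under 0.05, against 9.04% and 6.75% of all genes tested. DESeq2 called 9 higher and 3 lower (Fhl1, Jph2 and Asph), against 3.68% and 2.7% of the genes it gave an adjusted p. Of the 9, 7 were metabolic genes: Fbp2, Gys1, Gpd1, Ldha, Aldoa, Cox7a1 and Adssl1. The others were Hrc and Clcn1, of excitation and calcium handling. Hrc, Clcn1 and Fbp2 kept the shared library order. In Gys1, Gpd1, Ldha, Aldoa and Cox7a1 heterozygous replicate 2 was the highest heterozygous library, as in the adipocyte sums below. Acta1, skeletal muscle actin, named here after its values were seen, stood at 181 and 486 CPM in homozygous libraries, against 152, 63.4 and 1.23 CPM in heterozygous libraries.

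Among 20 tested further genes of the sarcomere and Z-disc the median was 1.06, and the most abundant ones did not follow the library order. Fhl1, a LIM-domain protein, stood at 997 and 1001 CPM in homozygous libraries, against 1224, 1245 and 1314 CPM in heterozygous libraries. Mylk4, a kinase of the myosin light chain kinase family, stood at 472 and 453 CPM in homozygous libraries, against 457, 487 and 601 CPM in heterozygous libraries. Ldb3, a Z-disc protein that binds alpha-actinin, stood at 192 and 182 CPM in homozygous libraries, against 221, 270 and 368 CPM in heterozygous libraries. Fhl1 and Ldb3 were lower in both homozygous libraries, at edgeR adjusted p of 0.186 and 0.227. They were the only 2 of the 20 separated in that direction, against 18.2% of all genes tested. For 6 of the 20 the groups did not overlap with homozygous libraries higher, against 17.4%. Myh3 and Myh8, the embryonic and perinatal heavy chains, and Myh13 did not pass the filter and were at most 0.461 CPM.

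Among 15 tested further genes of excitation and calcium handling the median was 0.66. Asph, junctate and its relatives, stood at 336 and 391 CPM in homozygous libraries, against 457, 481 and 519 CPM in heterozygous libraries. Jph2, the junctophilin of heart and smooth muscle, stood at 346 and 342 CPM in homozygous libraries, against 463, 578 and 510 CPM in heterozygous libraries. Cacna2d1, a calcium channel subunit, stood at 147 and 197 CPM in homozygous libraries, against 240, 228 and 206 CPM in heterozygous libraries. These 3 most abundant genes of the list were lower in both homozygous libraries. Their log2 fold changes were -0.42, -0.59 and -0.38, with edgeR adjusted p of 0.165, 0.114 and 0.266. They were the only 3 of the 15 separated in that direction, against 18.2% of all genes tested. For 6 of the 15 the groups did not overlap with homozygous libraries higher, against 17.4%.

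Among the 14 further metabolic genes the median was 0.69, and 10 had groups that did not overlap with homozygous libraries higher, against 17.4% of all genes tested. Gpd1, a glycerol phosphate dehydrogenase also abundant in fat, stood at 1153 and 965 CPM in homozygous libraries, against 443, 647 and 414 CPM in heterozygous libraries. Aldoa, the muscle aldolase, stood at 791 and 814 CPM in homozygous libraries, against 503, 591 and 465 CPM in heterozygous libraries. Slc25a4, the muscle adenine nucleotide carrier, stood at 209 and 271 CPM in homozygous libraries, against 240, 227 and 192 CPM in heterozygous libraries. Gpd1 and Aldoa lay nearly level in the 2 homozygous libraries, where most of the 38 genes differed by over 2 times.

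Markers of other tissues differed between libraries as well, with 0 called by edgeR in each list, as in the whole table. Their part in the results for the 38 genes was not tested. DESeq2 called 3.68% of all genes higher and 2.7% lower. It called 4 of 11 tested brown adipocyte markers higher and 1 lower, and 4 of 8 adipocyte markers higher and 0 lower. Of 17 tested cardiac and slow-fibre genes it called 1 higher and 1 lower, and of 8 smooth muscle markers 0 higher and 8 lower. In the endothelial and erythrocyte lists it called 0. The 12 brown adipocyte markers summed to 1341 and 1262 CPM in homozygous libraries, against 624, 999 and 546 CPM in heterozygous libraries, and 0 of the 11 tested kept the library order of the skeletal muscle genes. Ucp1, which lets mitochondria of brown fat make heat, stood at 581 and 569 CPM in homozygous libraries, against 152, 337 and 87.5 CPM in heterozygous libraries. Prdm16, the marker that DESeq2 called lower, stood at 150 and 187 CPM in homozygous libraries, against 232, 245 and 235 CPM in heterozygous libraries. The 8 adipocyte markers summed to 3462 and 3502 CPM in homozygous libraries, against 1747, 2679 and 1847 CPM in heterozygous libraries. In both lists heterozygous replicate 2 was the highest heterozygous library, where the skeletal muscle genes were highest in heterozygous replicate 1. The 20 cardiac and slow-fibre genes summed to 1208 and 1346 CPM in homozygous libraries, against 1421, 1487 and 1426 CPM in heterozygous libraries, mostly from Atp2a2 and Ryr2. Of the defining cardiac genes in that list, named after their values were seen, Myh6, the alpha heavy chain of heart, stood at 4.87 and 17.6 CPM in homozygous libraries, against 2.00, 3.17 and 9.54 CPM in heterozygous libraries. Myl7, the atrial light chain, stood at 0.459 and 2.46 CPM in homozygous libraries, against 0.277, 0.267 and 1.11 CPM in heterozygous libraries. Both were highest in homozygous replicate 3, as were most of the 38 genes, but next highest in heterozygous replicate 3, where most of the 38 were lowest. Myl4 shared these highest libraries, but not all genes of the list did. Tnni3, which DESeq2 called higher, stood at 3.00 and 3.13 CPM in homozygous libraries, against 1.38, 1.10 and 1.99 CPM in heterozygous libraries. Actc1 was highest in homozygous replicate 2 (9.33 CPM) and lowest in heterozygous replicate 3 (3.62 CPM). Pln was called lower. Tnnt2 reached 5.72 CPM and Myl4 8.78 CPM in some library, while the natriuretic peptide gene Nppa was at most 0.0795 CPM and Nppb had 0 counts in all 5 libraries. The 6 endothelial markers summed to 1082 and 380 CPM in homozygous libraries, against 744, 942 and 726 CPM in heterozygous libraries, with a median log2 fold change of -0.07. Homozygous replicate 3, highest in most of the 38 genes, was lowest in this sum and for Pecam1, Tie1, Tek and Vwf. Cdh5 was lowest in heterozygous replicate 3. Kdr was higher in both homozygous libraries, at 60.0 and 59.8 CPM against 30.2, 52.7 and 20.5 CPM in heterozygous libraries. The 5 erythrocyte markers summed to 23.9 and 28.9 CPM in homozygous libraries, against 37.8, 296 and 87.6 CPM in heterozygous libraries.

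**Figure D5:**
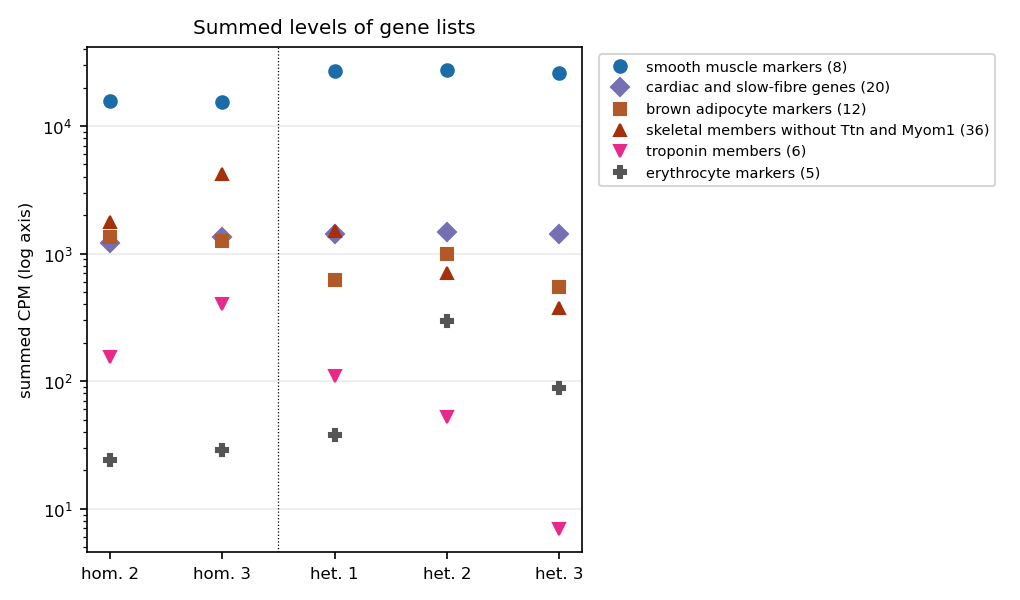
Summed CPM of gene lists in each library on a log axis, homozygous libraries left of the dotted line. The summed smooth muscle markers, and the cardiac and slow-fibre sum carried by Atp2a2 and Ryr2, vary little within a genotype, though single genes of the cardiac list such as Myh7 do (40.6, 11.1 and 0.596 CPM in heterozygous libraries). The troponins range from 6.88 to 109 CPM among the heterozygous libraries and reach 155 and 401 CPM in the homozygous ones. The sum of 36 members leaves out Ttn and Myom1, which hold most of the counts (1761 and 4200 CPM in homozygous libraries, against 1508, 710 and 375 CPM in heterozygous libraries).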

How the data were processed

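Libraries were made from aortic RNA with the TruSeq Stranded mRNA kit, per the labels' protocols. The authors deposited raw counts, whole numbers for 55453 gene symbols in 5 libraries, in columns named as in the sample descriptions. The submitters' processing notes name GRCm38 and the tools fastp 0.20.0, STAR 2.7.0f, Subread 1.6.4 and featureCounts. Neither annotation release nor strand setting is given in the sources used here.

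Low counts were filtered by filterByExpr and libraries scaled by TMM. In edgeR 4.0.16 under R 4.3.3, 18192 genes were tested on genotype alone with the quasi-likelihood method, adjusted over all genes by Benjamini-Hochberg, threshold 0.05, with 3 residual degrees of freedom. DESeq2 1.42.0 and limma 3.58.1 served as alternatives, beside other scalings, other filters, a replicate block and each library left out. The fit was tested on simulated data. Mice were separate, so p-values cover the spread among these 5 aortae, and every pair of libraries differed by more than sampling noise. Exon-union lengths and coordinates came from GENCODE M21 (GRCm38), which holds all 38 symbols. Isoform shares are counts per kilobase with exact binomial intervals (scipy 1.17.1). Promoters came from RefSeq (GRCm38.p6).

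The members, the further lists and the tests were chosen with earlier results of these data known. The rule named all thick filament, troponin and calcium genes with at least 10 CPM in any library, the 4 most abundant of each other role and up to 3 of the most abundant of each further list. Slow troponins, Actn2, Actn3, Xirp2, Myoz1, Myh7, Myh3, Myh8, Myh13, Acta1, Myh6, Myl7, Tnnt2, Myl4, Nppa, Nppb, Pax7, Myod1 and Thbs4 were added after their values were seen. So were Scx, Tnni3, Actc1, Pln, Tie1, Tek, Kdr, Dok7 and the further muscle genes that DESeq2 called. The rule also covers a gene that is not reported here.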

Additional observations from a re-analysis of the deposited data

How the results depend on the processing

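The positive median of the 38 skeletal muscle genes stayed positive under every alternative that gave one, and so did that of the further skeletal muscle genes. Under scaling by DESeq2 size factors or library totals, TMM without skeletal muscle genes, and a filter of 5 CPM in 2 libraries, edgeR called 0 genes. DESeq2 called 552 genes higher and 406 lower, with 3 members higher, and limma-voom 1 gene lower, with a member median of 2.885. With no filter edgeR called 982 genes higher, 432 lower and 27 members higher. With the replicate number as a block edgeR called 3 genes higher, 2 lower and 0 members, and the member median was 3.45. The deviations of same-numbered libraries from their group means correlated at -0.0273 (number 2) and -0.241 (number 3). With 2 homozygous libraries these deviations mirror each other, so each correlation has a counterpart of opposite sign. They therefore cannot show whether the numbers pair the samples. A crossed pairing, chosen after seeing the data, called 0 genes. With each library left out in turn edgeR called from 0 to 138 genes higher (138 without heterozygous replicate 2, 1 without homozygous replicate 3), from 0 to 9 lower and 0 members, and the member median ranged from 1.20 to 3.21. Over these omissions the log2 fold change ranged from -0.61 to 0.82 for Tnnt1, from -1.06 to 1.33 for Tnni1, from -0.97 to 1.38 for Tnnc1, from -0.34 to 0.85 for Actn2, from -0.45 to 0.44 for Casq1 and from -0.0614 to 0.444 for Jph1, negative in all 6 genes without homozygous replicate 3 and, for Tnnt1 (-0.04), Tnni1 (-0.31) and Casq1 (-0.02), also without heterozygous replicate 3. The causes were not tested. Members with a few counts in heterozygous replicate 3 have levels there that depth limits to multiples of a single count.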

Other observations

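Of the genes of muscle precursors, Pax7 and Myod1 were near the limit of detection. Of 10 myogenic factors and satellite cell genes, 4 were tested, with 0 past the threshold by edgeR's quasi-likelihood test or DESeq2 and 0 at an unadjusted p under 0.05. Pax7, the marker of satellite cells, was at 0.106 and 0.123 CPM in homozygous libraries, against 0.0922, 0.0296 and 0 CPM in heterozygous libraries, where 3 counts correspond to 0.0889 to 0.119 CPM. Myod1, a factor of muscle commitment, was at 0.318 and 0.276 CPM in homozygous libraries, against 0.0922, 0.0593 and 0 CPM in heterozygous libraries. Eya1 and Vgll2 were at most 2.58 CPM. Of 9 genes of the neuromuscular junction, 6 were tested, with 0 past the threshold by edgeR or DESeq2. At an unadjusted edgeR p under 0.05, 2 were higher, Chrnb1 and Dok7, against 9.04% of all genes tested. At that level 0 were lower, against 6.75%. Chrnb1, an acetylcholine receptor subunit, stood at 10.8 and 11.2 CPM in homozygous libraries, against 7.04, 8.92 and 9.22 CPM in heterozygous libraries, while Rapsn and Musk were at most 4.67 CPM.

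The 6 tendon markers summed to 107 and 161 CPM in homozygous libraries, against 210, 130 and 85.6 CPM in heterozygous libraries. The sum was highest in heterozygous replicate 1, where Fmod alone held 141 CPM. Scx was instead lowest in that library, at 4.20 and 6.08 CPM in homozygous libraries, against 3.99, 9.25 and 5.33 CPM in heterozygous libraries. The other genes of the list were highest there. Thbs4, a thrombospondin of tendon and the muscle attachment, stood at 4.52 and 8.93 CPM in homozygous libraries, against 16.8, 2.96 and 1.11 CPM in heterozygous libraries. This gene, named after its values were seen, was highest in heterozygous replicate 1. Tnnt1 and Tnni1 were also highest there, while Xirp2 and Tnnc1 were higher in homozygous replicate 3. The 6 adventitial fibroblast markers summed to 1575 and 1797 CPM in homozygous libraries, against 1651, 1380 and 1120 CPM in heterozygous libraries, and the 6 Schwann cell markers to 206 and 203 CPM, against 211, 192 and 156 CPM in heterozygous libraries.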
